A study of Mus musculus with 5 samples.

Results

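The small leucine-rich proteoglycans examined here were Dcn, Lum, Bgn, Fmod, Ogn, Omd, Prelp, Aspn, Podn and Kera. They were taken by gene symbol as named members of the family, and all 10 were among the 23478 genes of the table. Of these, 9 had enough counts to be tested, and Kera did not.

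Small leucine-rich proteoglycans are secreted matrix proteins with a curved core of leucine-rich repeats, and many carry chondroitin, dermatan or keratan sulfate chains. Their cores bind collagen and are known to set the width and spacing of collagen fibrils, and several also bind growth factors such as TGF-β. In the lung they are made mainly by fibroblasts and related mesenchymal cells, and decorin, the product of Dcn, has itself been described as a ligand of IGF1R.

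RNA-Seq was done on GFP-positive cells sorted from mouse lungs at P6, giving 2 control and 3 Igf1r-deleted libraries. All pups carried Gli1-CreERT2, which expresses a tamoxifen-dependent Cre from the Gli1 locus, together with the Rosa-EGFP reporter that marks cells in which Cre has acted. All received 100 µg of tamoxifen per pup at P0 and P1, so control cells were exposed to Cre as well. Control pups had 1 floxed and 1 wild-type Igf1r allele and Igf1r-deleted pups had 2 floxed alleles. The control cells could therefore lose 1 copy of Igf1r, and the comparison is of the loss of 1 allele with the loss of 2. The GFP-positive population holds the descendants of several Gli1-expressing mesenchymal cells rather than a single cell type, and the number of pups behind each library is not given, so p-values measure only the spread between these libraries.

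Libraries held 35116766 to 37597857 counts. Igf1r, the floxed gene on chr7:67952827-68233668 (mm10, plus strand), was at 324 CPM (counts scaled to the library's total) in both control libraries. With Igf1r deleted, the value was 140, 177 and 194 CPM in replicates 1, 2 and 3. The groups did not overlap, and the log2 fold change (Igf1r-deleted over control) was -0.93 with a standard error (SE) of 0.14. Counts cover the whole gene, so reads from exons outside the floxed part are included. The adjusted p-value of Igf1r was 0.354 in edgeR's quasi-likelihood test and 1.06e-05 in DESeq2. Y-linked Ddx3y was at 114 and 108 CPM in the controls and Igf1r-deleted replicate 2 had 85.6 CPM, but replicates 1 and 3 had 0.227 and 0.0557 CPM. Xist, expressed from the inactive X chromosome, was at 170 and 435 CPM in those last 2 libraries and at 0.302 to 4.09 CPM in the rest. By these genes the sex of the pups differed between the groups, and its part in the results below was not tested beyond the values from the 3 libraries with Ddx3y. In those values the Igf1r-deleted group is replicate 2 alone, the lowest library of its group for 7 of the 9 tested members.

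Per kilobase of merged exon length, Bgn was the most abundant member in every library. Bgn, which encodes biglycan, ranged from 528 to 659 RPKM (reads per kilobase of exon, scaled as CPM), and its mean placed it at rank 35 of 14505 tested genes with a known length. Ogn, which encodes osteoglycin, followed at 136 to 408 RPKM, and Aspn, which encodes asporin, at 127 to 196 RPKM. The ranges of Ogn and Aspn overlapped, although Ogn was the higher of the pair within each library. Fmod came next, at 72.8 to 110 RPKM, with no overlap with its neighbours in this order. Prelp (45.6 to 71.3 RPKM), Dcn (36.9 to 68.5 RPKM) and Lum (25.4 to 51.3 RPKM) followed, and each of these overlapped the next. Podn was at 13.6 to 20.4 RPKM, below all of these, and Omd at 1.76 to 4.64 RPKM. Kera, whose product keratocan belongs to the corneal stroma, had 0 to 6 counts per library. The order depends on the merged exon length of each gene, which was 5838 bp for Dcn and 3306 bp for Fmod. In CPM, Dcn was above Fmod in both controls (338 and 400 against 241 and 303) but below it in Igf1r-deleted replicates 1 and 2.

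**Figure D1:**
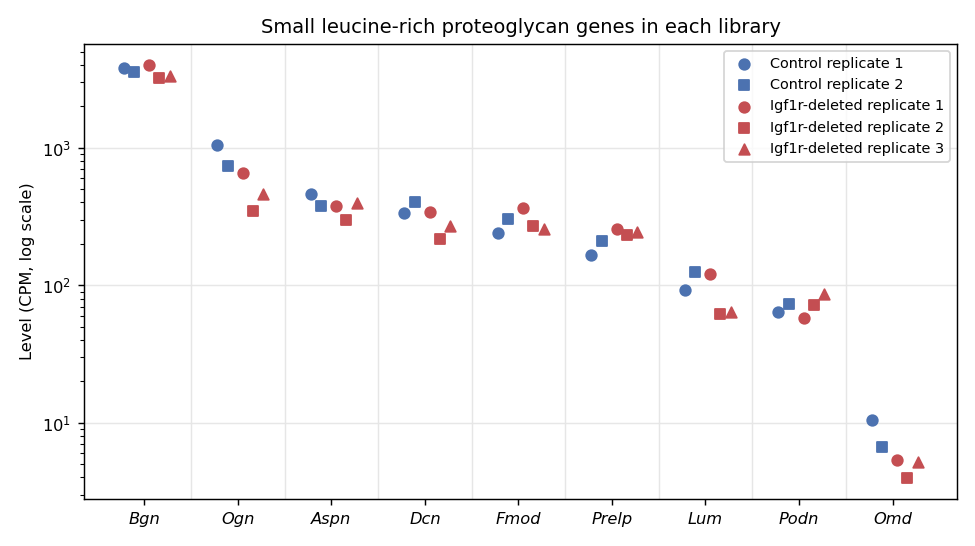
Level of the 9 tested members (x axis) in each library, in CPM on a log axis, with control libraries as blue and Igf1r-deleted libraries as red points and a marker shape for each replicate number. The groups of Ogn and Omd separate with the Igf1r-deleted libraries lower (485 against 892 CPM on average for Ogn), those of Prelp separate with the Igf1r-deleted libraries higher, and the rest overlap.

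Of the 9 members tested between genotypes, 6 had a log2 fold change below 0 and 3 above 0. Ogn and Omd were lower and Prelp was higher in every Igf1r-deleted library than in either control, and the other 6 overlapped between the groups. Over all 15298 genes tested, 14.9% were lower without overlap and 16% were higher without overlap, 31% in all, so 3 of 9 members is near the share of all genes. No member had an adjusted p-value under 0.05 by edgeR, as was the case for 0% of all genes, and members' adjusted p-values ran from 0.354 to 0.875. An unadjusted p-value under 0.05 was found for 3 members, Ogn, Omd and Prelp, and for 12.4% of all genes. DESeq2 called 1 member, Ogn, against 1.7% of the 11735 genes to which it gave an adjusted p-value. The median log2 fold change was -0.23 over the members and 0.015 over all genes. For the members it became -0.085 when control replicate 1 was left out, or -0.12 when Igf1r-deleted replicate 2 was. In these bulk libraries, fewer cells of a type and less RNA per cell cannot be told apart.

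**Figure D2:**
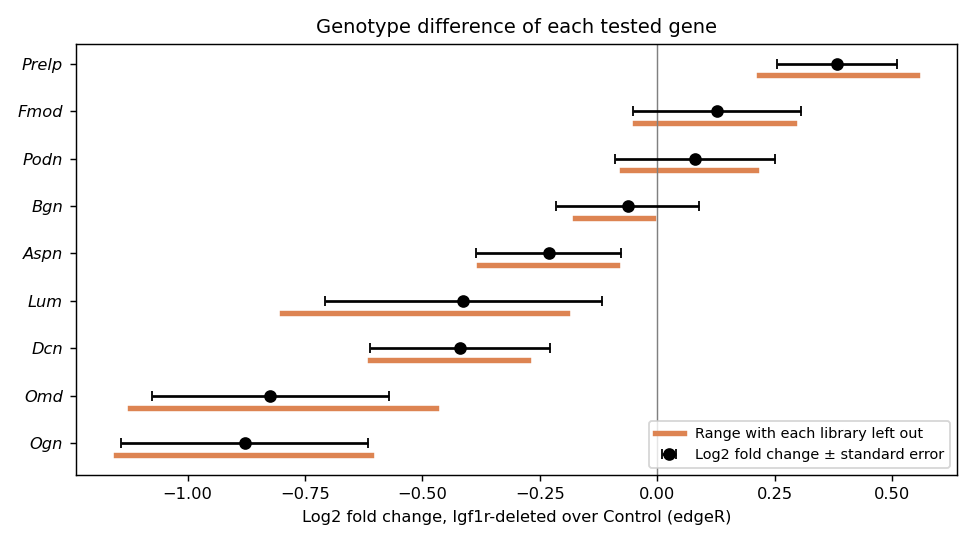
Log2 fold change of each tested member, Igf1r-deleted over control, as a black point with its standard error, above an orange line that spans the fits leaving out a single library. The lines of Ogn, Omd, Dcn, Lum, Aspn and Bgn lie below 0, that of Bgn reaching -0.0081. The line of Prelp lies above 0, and those of Fmod and Podn cross 0.

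Osteoglycin, the product of Ogn, also called mimecan, is a class III member that binds collagen and carries keratan sulfate in some tissues. Ogn was at 1047 and 737 CPM in control replicates 1 and 2, and at 649, 348 and 458 CPM with Igf1r deleted (replicates 1, 2 and 3). The control libraries lay above all Igf1r-deleted ones, although control replicate 2 was closer to Igf1r-deleted replicate 1 than to the other control. Group means were 892 ± 219 CPM (SD, n = 2) and 485 ± 152 CPM (SD, n = 3), and Ogn differed by -0.88 (SE 0.26) on the log2 scale. The adjusted p-value was 0.354 by edgeR (unadjusted 0.0118) and 0.0487 by DESeq2. With the replicate block, adding replicate number to the edgeR fit, the log2 fold change of Ogn was -0.89 and the adjusted p-value 0.0467. Replicate number 3 exists only in the Igf1r-deleted group, so that library adds nothing to the difference in this fit. The labels do not pair the other libraries. Without control replicate 1 the log2 fold change was -0.61 with an unadjusted p-value of 0.0841, in a fit where 1 control remained and the spread came from the Igf1r-deleted libraries alone. In the 3 libraries with Ddx3y, with replicate 2 as the only Igf1r-deleted library, it was -1.36.

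Omd, a neighbour of Ogn on chromosome 13, encodes osteomodulin, a class II member with an acidic end that is best known from bone. It was a minor transcript here, at 10.4 and 6.66 CPM in control libraries, and at 5.33, 3.95 and 5.20 CPM with Igf1r deleted. The groups did not overlap, but control replicate 1 stood well above every other library. On the log2 scale the difference was -0.82 (SE 0.25), with an adjusted p-value of 0.354 by edgeR and 0.115 by DESeq2. Without control replicate 1 it was -0.47, in a fit where 1 control remained.

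Ogn and Omd lie in a cluster with Aspn and Ecm2 on the plus strand of chromosome 13 (mm10, GENCODE M21), where Ecm2 spans chr13:49504810-49532789, Aspn chr13:49544443-49567565, Omd chr13:49582462-49592822 and Ogn chr13:49608046-49624501. They are separated by 11.7, 14.9 and 15.2 kb, with no other protein-coding gene between them, and all lie within the span of Cenpp, a centromere gene on the opposite strand. Cenpp itself was low, at a mean of 1.42 CPM in control and 1.51 CPM in Igf1r-deleted libraries. The promoter windows of the 4 genes are shown because these neighbours all had log2 fold changes below 0, together with that of Prelp, the member with the highest log2 fold change. Each line gives the 250 bases before the RefSeq transcription start (GRCm38.p6), 5′ to 3′ on the strand of the gene, with matches to the motifs searched in capitals. The windows are chr13:49504560-49504809, chr13:49544193-49544442, chr13:49582212-49582461 and chr13:49607765-49608014 on the plus strand, and chr1:133921402-133921651 on the minus strand.
Ecm2: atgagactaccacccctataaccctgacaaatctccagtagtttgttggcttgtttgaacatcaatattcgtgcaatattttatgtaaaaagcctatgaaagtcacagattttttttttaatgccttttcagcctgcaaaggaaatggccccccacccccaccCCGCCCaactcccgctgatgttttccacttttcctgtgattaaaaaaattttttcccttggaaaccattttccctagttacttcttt
Aspn: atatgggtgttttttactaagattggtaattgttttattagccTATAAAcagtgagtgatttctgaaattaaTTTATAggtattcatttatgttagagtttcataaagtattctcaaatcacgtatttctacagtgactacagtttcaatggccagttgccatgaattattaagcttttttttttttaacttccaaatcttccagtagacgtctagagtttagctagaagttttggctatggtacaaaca
Omd: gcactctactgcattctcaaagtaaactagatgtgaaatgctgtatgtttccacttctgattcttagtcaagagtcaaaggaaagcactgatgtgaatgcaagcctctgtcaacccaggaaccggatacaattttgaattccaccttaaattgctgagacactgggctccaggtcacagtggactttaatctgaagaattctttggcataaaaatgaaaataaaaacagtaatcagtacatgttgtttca
Ogn: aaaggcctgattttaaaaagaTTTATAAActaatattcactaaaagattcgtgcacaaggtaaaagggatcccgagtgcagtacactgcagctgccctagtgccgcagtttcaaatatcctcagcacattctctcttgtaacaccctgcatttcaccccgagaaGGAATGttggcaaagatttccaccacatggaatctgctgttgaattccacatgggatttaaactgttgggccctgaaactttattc
Prelp: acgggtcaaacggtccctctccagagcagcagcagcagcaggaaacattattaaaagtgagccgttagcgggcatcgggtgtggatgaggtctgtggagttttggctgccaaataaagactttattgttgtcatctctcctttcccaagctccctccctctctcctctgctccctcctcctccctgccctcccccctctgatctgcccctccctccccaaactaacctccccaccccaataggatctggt

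The motifs searched, on both strands, were TATAAA for the TATA box, GTAAACA for FOXO factors, GGAATG for TEAD factors, TGACTCA for AP-1, GGGCGG for the GC box, and the CArG box. The Ogn window held GGAATG at 86 to 81 bases before the start, and TATAAA on either strand in overlapping matches at 229 to 222 bases before it. The Aspn window held TATAAA at 207 to 202 and, on the other strand, at 178 to 173 bases before the start, and the Ecm2 window held a GC box at 87 to 82 bases before it. None of the motifs was matched in the Omd or Prelp windows. Among 32851 promoter windows of the same length, 12.4% held TATAAA, 12.6% GGAATG, 32.7% GGGCGG, 4.46% TGACTCA, 3.17% GTAAACA and 1.47% a CArG box. The cluster windows were poorer in G and C than most, with 40.0% for Ecm2, 30.0% for Aspn, 38.4% for Omd and 42.0% for Ogn, against a median of 52.4% over all windows and 55.6% for Prelp. These matches describe the letters of the windows only.

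Aspn, which encodes a class I member with an aspartate-rich end that binds TGF-β and collagen, was at 462 and 378 CPM in control replicates 1 and 2, against 378, 299 and 397 CPM after deletion of Igf1r. The groups overlapped, with control replicate 1 again the highest library. This gave a log2 fold change of -0.23 (SE 0.15, adjusted p-value 0.546 by edgeR). For Aspn it was -0.085 without control replicate 1, -0.12 without Igf1r-deleted replicate 2, -0.38 without control replicate 2 and -0.49 in the libraries with Ddx3y. Ecm2, an extracellular matrix protein with related repeats, was at 76.1 and 77.1 CPM in control cells, whereas the libraries with Igf1r deleted had 60.6, 53.7 and 64.0 CPM. Its control libraries were nearly equal and lay above all 3 Igf1r-deleted ones. The log2 fold change of Ecm2 was -0.37 (SE 0.11), with an adjusted p-value of 0.354 by edgeR and 0.10 by DESeq2, and it lay between -0.43 and -0.30 when any 1 library was left out.

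**Figure D3:**
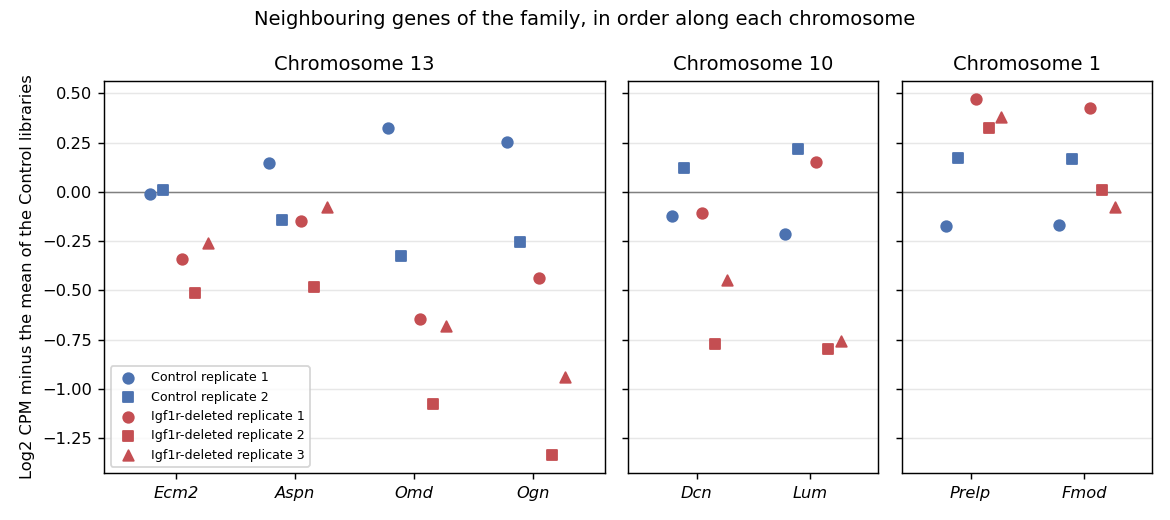
Log2 CPM of family genes minus their mean over the control libraries, for neighbours on chromosomes 13, 10 and 1 in their order along each chromosome, with a point for each control (blue) and Igf1r-deleted (red) library. Ecm2, Omd and Ogn have all red points below the blue ones, Dcn and Lum have Igf1r-deleted replicate 1 among the controls, and Prelp has all red points above the blue ones.

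Prelp was the member with the highest log2 fold change. PRELP, a class II member with a basic end, binds heparan sulfate and collagen and is known as an anchor of basement membranes to connective tissue. Prelp was at 165 and 209 CPM in control libraries, and at 258, 232 and 242 CPM with Igf1r deleted. The Igf1r-deleted libraries were close to each other and all above both controls, with means of 187 ± 31.3 CPM (SD, n = 2) and 244 ± 12.7 CPM (SD, n = 3). The fitted log2 fold change was 0.38 (SE 0.13), with an adjusted p-value of 0.354 by edgeR and 0.156 by DESeq2. Without control replicate 1 it was 0.22, in a fit where 1 control remained. In the 3 libraries with Ddx3y, with replicate 2 as the only Igf1r-deleted library, it was 0.31. Of the exon length of Prelp, 9.68% overlaps the antisense gene Gm15851, whose reads cannot be told apart if strand was not used in counting.

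Fmod encodes fibromodulin, a class II member that binds collagen and acts in collagen cross-linking. It lies near Prelp on chromosome 1, at chr1:134037254-134048277 on the plus strand, with Prelp at chr1:133910304-133921414 on the minus strand. Fmod was at 241 and 303 CPM in control replicates 1 and 2, against 363, 272 and 256 CPM after deletion of Igf1r. The groups overlapped, and only Igf1r-deleted replicate 1 lay above both controls. The log2 fold change was 0.13 (SE 0.18, adjusted p-value 0.780 by edgeR), and it was -0.047 without Igf1r-deleted replicate 1.

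Dcn and Lum lie in the cluster on the plus strand of chromosome 10, with Dcn at chr10:97479609-97518143, Lum at chr10:97565128-97572703, Kera at chr10:97606879-97613692 and Epyc at chr10:97644068-97682454. Dcn encodes decorin, a class I member that binds collagen fibrils and TGF-β. It was at 338 and 400 CPM in control cells, whereas the libraries with Igf1r deleted had 342, 215 and 270 CPM. Igf1r-deleted replicate 1 lay between the controls, and replicates 2 and 3 lay below both. On the log2 scale the difference was -0.42 (SE 0.19), with an adjusted p-value of 0.413 by edgeR and 0.291 by DESeq2. It was -0.61 without Igf1r-deleted replicate 1, -0.28 without Igf1r-deleted replicate 2, and in the 3 libraries with Ddx3y it was -0.78.

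Lum encodes lumican, a class II member that carries keratan sulfate and is known for the regular spacing of fibrils in the cornea. It was at 93.1 and 126 CPM in control libraries, and at 120, 62.1 and 64.1 CPM with Igf1r deleted. As with Dcn, Igf1r-deleted replicate 1 lay between the controls and the other pair lay below them. This gave a log2 fold change of -0.41 (SE 0.29, adjusted p-value 0.575 by edgeR), with values from -0.80 (without Igf1r-deleted replicate 1) to -0.19 (without control replicate 2) when a library was left out, and -0.82 in the libraries with Ddx3y. Kera had 2 and 0 counts in the control libraries and 4, 6 and 2 counts in the Igf1r-deleted ones. With totals scaled by TMM factors, the rate in the Igf1r-deleted group was 3.86 times that in the control group, with an exact 95% interval of 0.859 to 35.5 that covers counting error only, so no difference was detectable at this depth.

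Bgn, on the X chromosome at chrX:73483602-73495933, encodes biglycan, a class I member closely related to decorin that binds collagen and can signal through Toll-like receptors when released. It was at 3784 and 3571 CPM in control replicates 1 and 2, against 4017, 3221 and 3323 CPM after deletion of Igf1r. The groups overlapped, with the highest and the lowest value both among the Igf1r-deleted libraries. The fitted log2 fold change was -0.063 (SE 0.15, adjusted p-value 0.875 by edgeR), and it was 0.0064 when counts were scaled by library totals alone. In the 3 libraries with Ddx3y, with replicate 2 as the only Igf1r-deleted library, it was -0.20. The ratio of Bgn to Dcn, in CPM, was 11.2 and 8.93 in the controls and 11.8, 15.0 and 12.3 in the Igf1r-deleted libraries. Each Igf1r-deleted library had a higher ratio than either control, a mean difference of 0.37 on the log2 scale. An exact two-sided permutation test over libraries gave p = 0.1, the smallest that 2 against 3 libraries can give, and the difference lay between 0.21 and 0.53 when any 1 library was left out.

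Podn encodes podocan, a class V member that binds collagen and is known from kidney and vessel wall. It was at 64.3 and 72.7 CPM in control cells, whereas the libraries with Igf1r deleted had 58.0, 72.3 and 87.0 CPM. The controls lay within the range of the Igf1r-deleted libraries, and the log2 fold change was 0.081 (SE 0.17, adjusted p-value 0.856 by edgeR), or -0.075 without Igf1r-deleted replicate 3.

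Igf1r-deleted replicate 1 was the highest of its group for 7 of the 9 tested members, and replicate 2 the lowest for 7 of the 9. For 5 of the 9 members the log2 difference between the 2 controls was larger than that between the genotypes. Control replicate 1 was above control replicate 2 for Ogn (0.51 on the log2 scale), Omd (0.64), Aspn (0.29) and Bgn (0.084), and below it for Lum (-0.43), Prelp (-0.34), Fmod (-0.33), Dcn (-0.24) and Podn (-0.18). The 3 members of the chromosome 13 cluster were thus all higher in control replicate 1.

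Summed over the members, the family was at 6205 and 5803 CPM in control libraries, and at 6190, 4727 and 5102 CPM with Igf1r deleted, with overlapping groups. These sums weight long transcripts more than short ones. Without Bgn the sums were 2420 and 2232 CPM in control replicates 1 and 2, against 2173, 1506 and 1779 CPM after deletion of Igf1r. These did not overlap, and the Igf1r-deleted mean was 0.782 of the control mean. Leaving out Ogn as well gave 1373 and 1495 CPM in control, and 1524, 1158 and 1321 CPM with Igf1r deleted, which overlapped. By class, the sums of Dcn, Bgn and Aspn (class I) were 4584 and 4349 CPM against 4736, 3736 and 3989 CPM. Those of Lum, Fmod, Omd, Prelp and Kera (class II) were 509 and 645 CPM against 746, 570 and 568 CPM. Both classes overlapped between the groups.

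Composition was read as each member's share of the family's summed RPKM, and the shares of Ogn, Bgn, Prelp and Omd did not overlap between the groups. Kera, on 0 to 6 counts per library, is left aside. Ogn was 28.0% and 21.7% of the family in the controls and 18.4%, 13.3% and 15.8% in the Igf1r-deleted libraries. Bgn was 42.5% and 44.3% in the controls and 47.8%, 51.8% and 48.2% in the Igf1r-deleted libraries. Since shares sum to a whole, a lower share of Ogn raises the others. In CPM, Bgn overlapped between the groups, and 31% of all genes did not overlap. Prelp was 3.13% and 4.38% in the controls and 5.18%, 6.31% and 5.92% in the Igf1r-deleted libraries. The small share of Omd was 0.318% and 0.224% in the controls, against 0.172%, 0.172% and 0.205%. Aspn (11.6% to 14.9%), Fmod (4.99% to 8.07%), Dcn (3.62% to 5.18%), Lum (2.31% to 3.88%) and Podn (0.987% to 1.80%) had shares that overlapped between the groups.

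**Figure D4:**
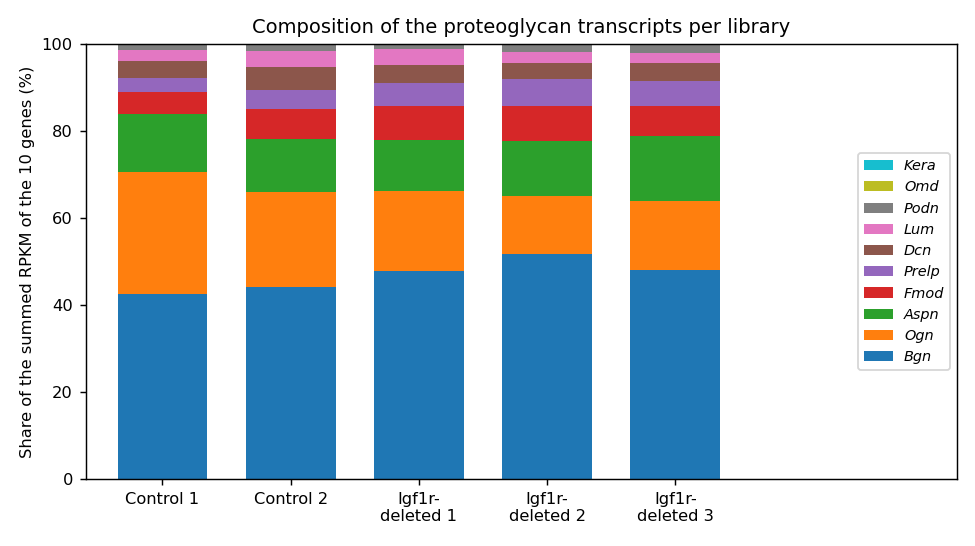
Share of each member in the family's summed RPKM, in percent, as stacked bars for the 2 control and 3 Igf1r-deleted libraries. Bgn is the largest segment in each bar, and the Ogn segment is 21.7% to 28.0% in control and 13.3% to 18.4% in Igf1r-deleted libraries.

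The other 7 genes of the family were measured as well, and 4 had a log2 fold change below 0 and 3 above 0, with a median of -0.11. Ecm2, given above, was the only one with an unadjusted p-value under 0.05, against 12.4% of all genes. Ecm2 and Nyx were lower without overlap, against 14.9% of all genes. Tsku, which encodes tsukushi, a secreted inhibitor of several signaling pathways, was at 36.0 and 33.9 CPM in control cells, whereas the libraries with Igf1r deleted had 49.7, 33.6 and 39.5 CPM (log2 fold change 0.23, unadjusted p-value 0.209 by edgeR). Chad, which encodes chondroadherin of cartilage, was below 2 CPM in every library (log2 fold change 0.11). Nyx, which encodes nyctalopin of the retina, was at 0.547 and 0.873 CPM in control libraries, and at 0.453, 0.352 and 0.223 CPM with Igf1r deleted (log2 fold change -1.05, unadjusted p-value 0.0888). Epyc (-1.17), Optc (0.47) and Podnl1 (-0.11) rested on 0 to 51 counts per library and overlapped between the groups.

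Enzymes that build the chains of these proteins lay on both sides of 0. Of 22 genes of chondroitin and dermatan sulfate synthesis, 21 were tested, of which 8 had a log2 fold change below 0 and 13 above 0, with a median of 0.028. Unadjusted p-values under 0.05 were found for 3 on the lower and 3 on the higher side, and edgeR called none after adjustment. Over all 15298 genes tested, 1032 had such a p-value on the lower and 865 on the higher side, 12.4% in all. Chst15, which adds a further sulfate to chondroitin sulfate A, was at a mean of 111 CPM in control and 57.5 CPM in Igf1r-deleted libraries (log2 fold change -0.95, SE 0.25), with an adjusted p-value of 0.0252 by DESeq2 and no other gene of this list called. Ust, the uronyl 2-sulfotransferase, was at 106 and 60.3 CPM (log2 fold change -0.81). B3galt6, which adds a sugar of the linker shared by these chains, was at 13.2 and 18.5 CPM (0.49), and Chsy3, a chondroitin synthase, at 110 and 138 CPM (0.33). In control replicates 1 and 2, Chst15 was at 143 and 78.8 CPM and Ust at 143 and 68.9 CPM. The Igf1r-deleted libraries were at 66.9, 56.7 and 48.8 CPM for Chst15 and 65.1, 54.7 and 61.2 CPM for Ust. For both genes, control replicate 2 was closer to each Igf1r-deleted library than to control replicate 1. Of the 8 keratan sulfate genes, 4 lay on each side of 0 and the median was -0.18. B3gnt2 was at 93.1 CPM in control and 52.9 CPM in Igf1r-deleted libraries, B4galt1 at 725 and 472 CPM, and B3gnt7 at 6.99 and 3.38 CPM, while B4galt4 was at 80.7 and 106 CPM and the sulfotransferase gene Chst2 at 507 and 750 CPM. These 5 of 8 had unadjusted p-values from 0.00782 to 0.0395, where 12.4% of all genes had a value under 0.05. After adjustment, edgeR and DESeq2 called none of the 8. B3gnt2 was at 117 and 69.4 CPM in control replicates 1 and 2, against 64.1, 44.4 and 50.2 CPM with Igf1r deleted. For Chst2 the values were 373 and 640 CPM against 679, 837 and 735 CPM.

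Of the collagens whose fibrils the family binds, 11 of 12 lay below 0, as did 7301 of all 15298 genes tested. Their median log2 fold change was -0.17, and 2 were lower without overlap, against 14.9% of all genes. Their summed levels overlapped, at 33576.4 and 36070.5 CPM in control and 35964.9, 26940 and 29670.4 CPM with Igf1r deleted. Against 12.4% of all genes, 1 of the 12 had an unadjusted p-value under 0.05. That gene was Col6a1, of the beaded filaments that biglycan and decorin bind, at a mean of 2858 CPM in control and 2180 CPM in Igf1r-deleted libraries (-0.39). Col3a1, of the major fibril-forming collagens, was at 9338 and 8192 CPM (-0.19) and Col1a2 at 7014 and 6430 CPM (-0.13). Of 15 receptors and growth factors that members bind, 9 lay below and 6 above 0. Compared with 12.4% of all genes, 3 and 2 of them had unadjusted p-values under 0.05. Besides Igf1r, these included Lrp1, an endocytic receptor for decorin, at 2770 and 1823 CPM (-0.60, adjusted p-value 0.0376 by DESeq2), Tlr4, a receptor for biglycan, at 8.88 and 6.45 CPM (-0.46), and Cd44, the hyaluronan receptor, at 315 and 449 CPM (0.51). Of 10 tested proteases that process or cut the family, 7 lay below and 3 above 0, and none had an unadjusted p-value under 0.05. Mmp2, a gelatinase that cuts decorin, was at 3226 and 2851 CPM (-0.18).

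Among 18 tested genes of other proteoglycan core proteins, 11 lay below and 7 above 0, with a median of -0.18. Unadjusted p-values under 0.05 were found for 3 and 2 of them, against 12.4% of all genes. Spock2, which encodes testican-2, was at a mean of 81.0 CPM in control and 38.8 CPM in Igf1r-deleted libraries (log2 fold change -1.06, adjusted p-value 0.0291 by DESeq2). Tgfbr3, which encodes the TGF-β co-receptor betaglycan, was at 407 and 253 CPM (-0.69), and the syndecan gene Sdc3 at 124 and 166 CPM (0.43). In control replicates 1 and 2, Spock2 was at 106 and 56.5 CPM and Tgfbr3 at 514 and 301 CPM. The Igf1r-deleted libraries were at 47.7, 39.7 and 28.8 CPM for Spock2 and 280, 233 and 246 CPM for Tgfbr3. No gene of the collagen, receptor, protease or other core protein lists had an adjusted p-value under 0.05 by edgeR.

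Markers of the cells that could hold these transcripts were read beside them. Summed fibroblast markers were at 54329 to 54416 CPM in control and 39938 to 53957 CPM in Igf1r-deleted libraries, with 7 of 8 genes below 0. Matrix and lipofibroblast markers were at 11329 to 11654 and 9499 to 10504 CPM, with 8 of 9 below 0, and myofibroblast markers at 3092 to 3619 and 3634 to 4335 CPM, with 8 of 9 above 0. These 3 sums did not overlap between the groups, though control replicate 2 and Igf1r-deleted replicate 1 were close for the fibroblast and myofibroblast sums. As single genes, 2 fibroblast markers (Fn1 and Tcf21) were lower and 1 (Gli1) higher without overlap. Sums weight abundant genes most. Fn1, the most abundant fibroblast marker, was at 18488 and 16143 CPM in control and 15556, 9625 and 10716 CPM with Igf1r deleted. Mfap4, the next in abundance, overlapped. Among myofibroblast markers, Acta2 was at 407 and 655 CPM in control and 764, 1067 and 907 CPM with Igf1r deleted. The more abundant Tgfbi and Hhip overlapped. Without overlap, 2 matrix and lipofibroblast markers were lower and 4 myofibroblast markers higher. Over all genes, 31% did not overlap. Adventitial fibroblast markers (5423 to 6786 and 5294 to 6501 CPM, 7 of 12 below 0) and pericyte markers (565 to 611 and 536 to 607 CPM, 3 of 8 below 0) overlapped. Cells outside the mesenchyme left smaller sums, with epithelial markers at 872 to 907 and 432 to 967 CPM (8 of 10 below 0) and endothelial markers at 498 to 505 and 251 to 709 CPM (4 of 8 below 0). Hematopoietic markers were at 354 to 542 and 187 to 433 CPM (8 of 8 below 0) and mesothelial markers at 444 to 450 and 341 to 454 CPM (5 of 6 below 0). Their part in the results for Ogn, Omd and Prelp was not tested.

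Cartilage and tendon also make Omd, Prelp, Fmod and Aspn. Cartilage markers summed to 60.5 and 32.8 CPM in the controls and to 60.6, 26.8 and 21.1 CPM in the Igf1r-deleted libraries, with 6 of the 7 tested below 0. Matn1, which marks cartilage, had 0 counts in 4 of the 5 libraries, but other cartilage markers were present in every library. Sox9 ranged from 15.3 to 17.5 CPM in control libraries, and from 9.88 to 17.4 CPM with Igf1r deleted. For Col2a1 the ranges were 7.34 to 21.4 CPM and 4.48 to 18.4 CPM. The sum was highest in control replicate 1 and Igf1r-deleted replicate 1, and the part of cartilage in the values of Omd and Prelp was not tested. Tendon markers summed to 28.5 to 32.2 CPM in control and 27.3 to 32.6 CPM in Igf1r-deleted libraries, with 2 of the 3 tested below 0. Tnmd, which marks tendon, stayed at 0 to 0.0546 CPM, but the tested markers were present in every library. Scx ranged from 6.94 to 9.41 CPM in control libraries and was higher without overlap after deletion of Igf1r, from 11.5 to 13.9 CPM. Its log2 fold change was 0.59, with an unadjusted p-value of 0.0171 and an adjusted p-value of 0.354 by edgeR. Mkx (-0.29) and Thbs4 (-0.55) overlapped between the groups. The part of tendon in the values of the members was not tested.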

How the data were processed

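Cells were sorted for GFP on a MoFlo XDP sorter, RNA was isolated with an RNeasy kit, and libraries from a NEBNext Ultra kit were sequenced as read pairs on an Illumina HiSeq. After trimming with Trim Galore and alignment to mm10 with Bowtie2, the authors counted reads per gene with GenomicAlignments of Bioconductor and deposited those raw counts, 1 column per library. Tool versions, the annotation and whether counting used strand are not given in the sources used here. The authors also name Cufflinks and DESeq, whose output was not used here.

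Groups and replicate numbers came from the sample labels. The main test was edgeR 4.0.16 (limma 3.58.1, R 4.3.3), a two-sided quasi-likelihood F test with TMM factors, filterByExpr, a model of genotype alone and Benjamini-Hochberg adjusted p-values over 15298 genes. A further 4833 genes had 0 counts in every library. CPM used TMM-scaled totals, and log2 CPM a prior count of 2. RPKM used the merged exon length of each gene in GENCODE M21, which was matched by symbol to 14505 of the tested genes. DESeq2 1.42.0 was an alternative. Other scalings, filters, limma voom, a replicate block and leaving out each library were tried. The libraries of a group differed by more than their counting error (chi-square over its degrees of freedom 24.4 to 53.4), and precision therefore rests on the replicate spread. A count of 0 allows up to 3 counts, which is 0.0754 to 0.0864 CPM, and this covers counting error only.

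Each library is 1 labelled replicate. Members and gene lists, of which 8 genes stand on a pair of lists (Col1a1, Col1a2, Col3a1 and Tcf21 among the fibroblast markers), were chosen with earlier results of these data known. All 10 members, Igf1r and the 7 other genes of the family are named. Of every other list, the text names up to 4 genes with the smallest unadjusted p-value and up to 2 of the most abundant. The genes most like Ogn, Omd and Lum, the 3 tested members with the widest range over libraries, are those of mean CPM of at least 10 with the smallest root-mean-square difference in centred log2 CPM. Promoter windows came from RefSeq (GRCm38.p6), with an entry for 9 of the 11 genes looked up and none for Dcn and Lum. Ddx3y, Xist and the genes printed for a single count were named after their values were seen.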

Additional observations from a re-analysis of the deposited data

How the results depend on the processing

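No member had an adjusted p-value under 0.05 by edgeR with other scalings or filters, by limma voom, or with any 1 library left out. DESeq2 called 1 member (Ogn), with 200 genes called in all, or 197 on every gene with a count (1 member, an alternative chosen after seeing the data). The replicate block also called 1 member (Ogn) and 136 genes. Only replicate numbers 1 and 2 are shared by the groups, so Igf1r-deleted replicate 3 adds nothing to the genotype difference in that fit. Nothing in the labels pairs the shared numbers. The correlations of their deviations were 0.208 and 0.121. They cannot decide on pairing, because the deviations of 2 controls from their own mean are always opposite. Leaving out 1 library gave 0 to 45 genes called, 45 without control replicate 2. Members with an unadjusted p-value under 0.05 numbered 0 (without control replicate 1) to 5 (without Igf1r-deleted replicate 1). In the 3 libraries with Ddx3y, also chosen after seeing the data, 5 members passed that threshold, 0 after adjustment, and 10 genes were called. The Igf1r-deleted group is there 1 library, replicate 2, the lowest of its group for 7 of 9 members, so these counts and the larger fold changes rest on it. Fits without a control also leave 1 library in that group. In both cases the lone library is assumed to vary like the other group. The median log2 fold change of the members was -0.23, -0.49 in the libraries with Ddx3y, -0.085 when control replicate 1 was left out, or -0.12 when Igf1r-deleted replicate 2 was. Not every fold change was larger in the libraries with Ddx3y, where that of Prelp was 0.31 against 0.38 in all 5. Directions turned only for members near 0: Bgn was 0.0064 with library totals, Podn -0.078 with the replicate block, and Fmod -0.0067 in the libraries with Ddx3y. Without 1 library each, Fmod ran from -0.047 to 0.29 and Podn from -0.075 to 0.21. Fmod was below 0 without control replicate 1 or Igf1r-deleted replicate 1, and Podn without control replicate 1 or Igf1r-deleted replicate 3. The cause of these shifts was not tested. With 2 and 3 libraries no exact test of a single value can pass 0.05.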

Other observations

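The genes whose levels over the 5 libraries were most like those of Ogn were Slc2a12, Fam222a and Coq10b, with root-mean-square differences of 0.056, 0.084 and 0.085 on the log2 scale, where Ogn itself ranged over 1.59. This was a comparison with 9101 genes, and all share the same libraries. For Omd, which ranged over 1.39, they were Irs2, an adaptor of the insulin and IGF1 receptors (0.074), Tiparp (0.091) and Ndrg2 (0.094). For Lum, which ranged over 1.01, they were Ptn, which encodes the growth factor pleiotrophin (0.079), B4galnt1 (0.12) and Maff (0.136).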
